A study of Homo sapiens with 39 samples.

Results

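Sterol synthesis genes under the control of the transcription factor SREBP2 are described here. They are HMGCS1, MVD, IDI1, FDFT1, SQLE, CYP51A1 and INSIG1, chosen by name as well-known SREBP2 targets. All 7 were found, each by a single target, among the 20802 gene targets of the series. The cells were HepaRG™, an established human hepatoma line that was plated in its differentiated state. They were exposed daily for 3 days to 1 of 10 chemicals, and RNA was taken 7 h after the third treatment, at 55 h. The DNA damage-inducing (DDI) chemicals were 2-nitrofluorene (2NF, 10, 50 and 250 µM), aflatoxin B1 (AFB1, 0.25, 1 and 2.5 µM), cisplatin (CISP, 2, 5 and 10 µM), etoposide (ETP, 0.5, 2.5 and 10 µM) and methyl methanesulfonate (MMS, 50, 100 and 200 µM). The non-DDI chemicals were colchicine (COL, 0.05, 0.1 and 0.3 µM), 2-deoxy-D-glucose (2DG, 1.25, 5 and 10 mM), sodium ascorbate (ASC, 1, 2 and 10 mM), ampicillin trihydrate (AMP, 1, 3 and 10 mM) and NaCl (1, 2.5 and 10 mM). These concentrations are called low, mid and high.

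SREBP2 is made as a membrane protein of the endoplasmic reticulum, where its escort SCAP is held back by INSIG proteins as long as sterols are plentiful. When sterols run short, SCAP carries SREBP2 to the Golgi, proteases release its DNA-binding part, and that part switches on the enzymes that build cholesterol from acetyl-CoA. Hepatocytes are a main site of this synthesis, and they also use cholesterol for bile acids and lipoproteins.

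The 39 libraries comprised 30 treated conditions and 9 vehicle controls, of which 4 were DMSO (for CISP, 2NF and ETP, and 1 shared by AFB1 and COL), 4 were media (2DG, ASC, AMP and NaCl) and 1 was water (MMS). The RNA of 3 cultures was pooled for each library, so no condition had a replicate and the spread between cultures was not measured. Library totals ranged from 8504699 to 16425527 counts, and the smallest count of any of the 7 genes in any library was 199. Levels are given as RPM, the deposited read counts scaled to a common library total. RPM can be compared between libraries for 1 gene, but not between genes, since every gene was read from a single amplicon. A log2 ratio is the log2(RPM + 1) of a treated library minus that of its matched control. A trend is the slope of the log2 count, per step from control to low, mid and high, fitted to the counts of all 39 libraries with edgeR. A gene was called at a Benjamini-Hochberg adjusted p under 0.05 over all genes tested. The p-values of the trends rest on how far libraries fell from the fitted lines, not on replicate cultures.

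The start regions of 4 of the genes are shown, for the following reasons. HMGCS1, MVD and IDI1 were called together in 2NF. INSIG1 and IDI1 hold a short pattern of letters similar to the element that gives SREBP its name. The windows are from RefSeq on GRCh38.p14, with 250 bases before and 50 after the annotated start, 5′ to 3′ on the strand of the gene. Capitals mark 3 motifs searched on both strands, an SRE-like core (CACNCCAC), the CCAAT box (CCAAT) bound by NF-Y and the GC box (GGGCGG) bound by Sp1, factors that act beside SREBP at many sterol genes. Neighbouring capitals can belong to overlapping motifs.
HMGCS1, chr5:43313363-43313662, minus strand: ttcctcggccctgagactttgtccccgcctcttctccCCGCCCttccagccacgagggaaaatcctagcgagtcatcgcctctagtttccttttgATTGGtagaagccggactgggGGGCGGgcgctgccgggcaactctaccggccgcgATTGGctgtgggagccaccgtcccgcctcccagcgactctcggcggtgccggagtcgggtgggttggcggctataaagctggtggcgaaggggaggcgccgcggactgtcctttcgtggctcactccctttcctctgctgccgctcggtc
MVD, chr16:88663042-88663341, minus strand: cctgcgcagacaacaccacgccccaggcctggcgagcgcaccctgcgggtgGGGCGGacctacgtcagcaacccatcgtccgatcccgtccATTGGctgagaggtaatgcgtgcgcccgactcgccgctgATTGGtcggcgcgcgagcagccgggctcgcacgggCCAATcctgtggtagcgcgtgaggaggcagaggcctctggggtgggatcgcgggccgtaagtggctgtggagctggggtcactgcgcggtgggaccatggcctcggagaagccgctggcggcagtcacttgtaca
IDI1, chr10:1048837-1049136, minus strand: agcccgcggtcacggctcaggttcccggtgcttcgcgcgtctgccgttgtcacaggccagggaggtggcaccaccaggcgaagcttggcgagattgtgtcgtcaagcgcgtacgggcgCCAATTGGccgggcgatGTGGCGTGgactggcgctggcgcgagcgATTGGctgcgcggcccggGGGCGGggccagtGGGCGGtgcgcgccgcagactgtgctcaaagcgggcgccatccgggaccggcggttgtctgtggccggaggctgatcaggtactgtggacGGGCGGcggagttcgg
INSIG1, chr7:155297628-155297927, plus strand: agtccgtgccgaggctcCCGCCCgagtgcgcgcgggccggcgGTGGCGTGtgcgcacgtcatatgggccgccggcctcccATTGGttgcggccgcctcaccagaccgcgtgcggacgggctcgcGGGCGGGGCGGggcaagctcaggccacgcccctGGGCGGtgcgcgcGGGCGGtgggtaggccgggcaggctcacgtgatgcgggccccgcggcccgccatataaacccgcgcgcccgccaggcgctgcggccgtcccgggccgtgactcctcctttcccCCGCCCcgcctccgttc

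In these letters the SRE-like core was found on the opposite strand at position -208 of INSIG1 and -115 of IDI1, counted from the annotated start. HMGCS1 held 2 CCAAT boxes on the opposite strand, at -155 and -100, and MVD held 3. Entries were found for 5 of the 7 genes, 8 windows in all because HMGCS1 has 2 annotated starts and IDI1 has 3. Of the 3 IDI1 windows only that shown here held the SRE-like core, and the HMGCS1 window not shown held no CCAAT box. The SRE-like core was in 2 of the 8 windows, the CCAAT box in 5 and the GC box in all 8. Among 35116 promoter windows of the same length the shares were 5.87%, 34.6% and 45.0%. A match of letters is a description and not a site of binding, and a window without one says nothing about the factor.

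Several of the sterol synthesis genes fell with the concentration of 2NF, MMS and COL. In 2NF, HMGCS1, MVD and IDI1 fell with concentration, 3 of the 7 genes, where 4.45% of all 13812 genes tested were called lower. In MMS, HMGCS1, MVD and CYP51A1 fell, again 3 of 7, against 10.4% of all genes called lower. In COL, MVD, IDI1 and FDFT1 fell, 3 of 7, against 7.21% of all genes. In AFB1 none of the 7 was called, against 3.21% of all genes called lower, although 3 had an unadjusted p under 0.05 and DESeq2 called 1, HMGCS1. All 7 slopes were below 0 in 2NF, MMS and COL and 6 of 7 in AFB1, with medians of -0.20, -0.24, -0.27 and -0.19, while the median over all genes lay between -0.0066 and 0.0009 in these chemicals. None of the 70 slopes was called higher. Of 10 hepatocyte markers, between 6 and 9 fell in these same 4 chemicals, with values given further on.

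**Figure D1:**
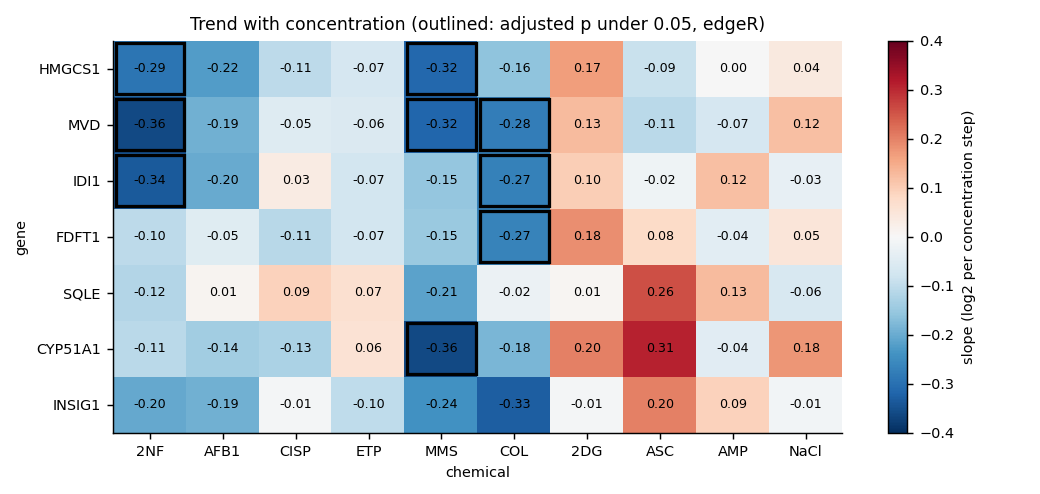
Trend of each gene in each chemical, as the slope of the log2 count per concentration step (colour and printed value), fitted with edgeR to 39 libraries. The outlined cells are the 9 slopes with an adjusted p under 0.05, all below 0 and all in 2NF, MMS and COL.

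HMGCS1 makes HMG-CoA, the precursor of mevalonate. In 2NF it measured 398 RPM in the control and 379, 251 and 244 RPM at the low, mid and high concentrations. The mid and high libraries were below all 4 DMSO controls, which ranged from 309 to 444 RPM, and the low library was within that range. The slope was -0.29 log2 per step (SE 0.0752, edgeR adjusted p = 0.0118), or a fitted change of -45.5% over the 3 steps. In MMS it measured 326 RPM in the control, then 264, 193 and 191 RPM, the last of which was the lowest of all 39 libraries. The MMS slope was -0.32 (SE 0.0738, edgeR adjusted p = 0.00432). In both chemicals the mid and high libraries were close to each other and apart from the control. In COL it measured 309, 328, 291 and 244 RPM (slope -0.16, SE 0.0712, edgeR adjusted p = 0.159), and in AFB1, with the same control library, 309, 296, 281 and 211 RPM (slope -0.22, SE 0.0715, edgeR adjusted p = 0.0658). In these the high library alone stood clear of its control, by a log2 ratio of -0.34 in COL, within the 0.52 spanned by the DMSO controls, and of -0.54 in AFB1, just past it. The control shared by COL and AFB1 was the lowest of the 4 DMSO controls for HMGCS1. Against their mean the log2 ratios at high were -0.63 in COL and -0.83 in AFB1, both past the span. The shared control was also the lowest DMSO control for MVD, IDI1 and INSIG1, but the highest for CYP51A1.

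MVD removes a carboxyl group from mevalonate diphosphate to give isopentenyl diphosphate, the building block of all isoprenoids. It was the one gene called in all of 2NF, MMS and COL. In 2NF it measured 130 RPM in the control and 138, 68.6 and 74.7 RPM at low, mid and high (slope -0.36, SE 0.0861, edgeR adjusted p = 0.00619). In MMS the values were 108, 116, 70.6 and 67.8 RPM (slope -0.32, SE 0.0868, edgeR adjusted p = 0.0137). In COL they were 108, 106, 77.6 and 72.1 RPM (slope -0.28, SE 0.0805, edgeR adjusted p = 0.0211). The pattern had 2 levels in each of these chemicals, with the low library beside the control and the mid and high libraries below all 9 vehicle controls, which ranged from 100 to 131 RPM. In AFB1 only the high library dropped, to 74.5 RPM from 108 RPM in the control, 109 at the low and 108 at the mid concentration (slope -0.19, SE 0.0816, edgeR adjusted p = 0.213).

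IDI1 converts isopentenyl diphosphate to its isomer, the 2 units that are joined to make longer isoprenoids. In 2NF it measured 612 RPM in the control and 547, 273 and 364 RPM at low, mid and high (slope -0.34, SE 0.0868, edgeR adjusted p = 0.0120). The control of 2NF was the highest of all 39 libraries for IDI1, and the other DMSO controls ranged from 437 to 505 RPM, so the 2NF mid and high libraries were also below those. Against the mean of the 4 DMSO controls the log2 ratios were -0.88 at mid and -0.46 at high. In COL the values stepped down from 437 RPM in the control to 352, 327 and 266 RPM (slope -0.27, SE 0.0832, edgeR adjusted p = 0.0299). In MMS IDI1 measured 332, 357, 246 and 286 RPM and was not called (slope -0.15, SE 0.0887, edgeR adjusted p = 0.261). For IDI1 this water control was the lowest of all vehicle controls, and the MMS mid and high libraries were below it.

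FDFT1 joins 2 farnesyl diphosphates to squalene, the first step committed to sterols. Its controls were the tightest of the 7 genes, with 4 DMSO controls from 550 to 645 RPM and 4 media controls from 538 to 615 RPM. In COL it measured 598 RPM in the control and 501, 447 and 364 RPM at low, mid and high (slope -0.27, SE 0.0582, edgeR adjusted p = 0.00240). All 3 COL libraries were below every vehicle control, in the order of their concentrations, and the last was the lowest of the 39 libraries. To lie below every vehicle control was not particular to COL, since the lowest of these, water, was at 532 RPM. All 3 ETP libraries (524, 530 and 513 RPM) did so, as did AMP at mid (462 RPM) and ASC at low (483 RPM), among others. In 2NF FDFT1 measured 550, 568, 482 and 480 RPM (slope -0.10, edgeR adjusted p = 0.402) and in MMS 532, 528, 394 and 453 RPM (slope -0.15, edgeR adjusted p = 0.103).

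SQLE, which adds the oxygen that lets squalene close into a ring and is a rate-limiting enzyme of the later pathway, was called in none of the 10 chemicals. Its level was uneven between libraries of the same vehicle, from 37.4 to 58.8 RPM in the DMSO and from 29.1 to 58.2 RPM in the media controls. The mid libraries of 2NF and MMS were low, at 27.0 and 17.5 RPM against controls of 56.4 and 41.0 RPM, while the high libraries were at 52.1 and 35.6 RPM. In COL SQLE stayed between 39.2 and 45.6 RPM in the control and all 3 treated libraries, with a slope of -0.02 (SE 0.158). This slope was below 0 although all 3 treated libraries were above the control. The standard errors of its 10 slopes, 0.158 to 0.182, exceeded those of all 9 slopes called in the other genes, so a change of the size called there could go undetected in SQLE.

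CYP51A1 removes a methyl group from lanosterol. In MMS it measured 1054 RPM in the water control and 928, 395 and 632 RPM at low, mid and high (slope -0.36, SE 0.125, edgeR adjusted p = 0.0487). The water control was the highest of the 9 vehicle controls for CYP51A1, and the lowest was at 638 RPM. The mid library was well below all 9, and the high library only just below them. In CISP the mid library, at 385 RPM, was the lowest of all 39, whereas the CISP low and high libraries were at 821 and 831 RPM and the control at 913 RPM. The slope in CISP was -0.13 (SE 0.122) and was not called. In 2NF CYP51A1 measured 725, 697, 739 and 580 RPM and in COL 982, 851, 1041 and 661 RPM, so that only the high libraries were lower than the lowest DMSO control, at 672 RPM.

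INSIG1 is itself an SREBP target, and its protein keeps SCAP and SREBP in the endoplasmic reticulum. In COL it measured 129 RPM in the control and 115, 96.7 and 67.0 RPM at rising concentrations, a slope of -0.33 (SE 0.113) that narrowly missed the threshold (edgeR adjusted p = 0.0544) and was called by DESeq2. The COL high library was the lowest of all 39. In 2NF it measured 212, 182, 90.6 and 166 RPM (slope -0.20, SE 0.111, edgeR adjusted p = 0.342). The control of 2NF was the highest of the 39 libraries, and only the mid library was below the range of the DMSO controls, 129 to 212 RPM. In MMS it measured 108, 101, 68.0 and 76.9 RPM (slope -0.24, SE 0.117, edgeR adjusted p = 0.172).

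The course over concentration thus differed by chemical. In COL and AFB1 the mean log2 ratio of the 7 genes went down step by step, from -0.10 to -0.23 and -0.52 in COL and from 0.04 to -0.08 and -0.31 in AFB1. In 2NF and MMS it was lowest at the mid concentration, at -0.09, -0.74 and -0.46 in 2NF and -0.03, -0.78 and -0.47 in MMS. SQLE, IDI1, INSIG1 and, in MMS, CYP51A1 and FDFT1 were lower at mid than at high, whereas HMGCS1 kept its mid level at high in both chemicals. With 1 library a concentration, the turn between mid and high was not tested.

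**Figure D2:**
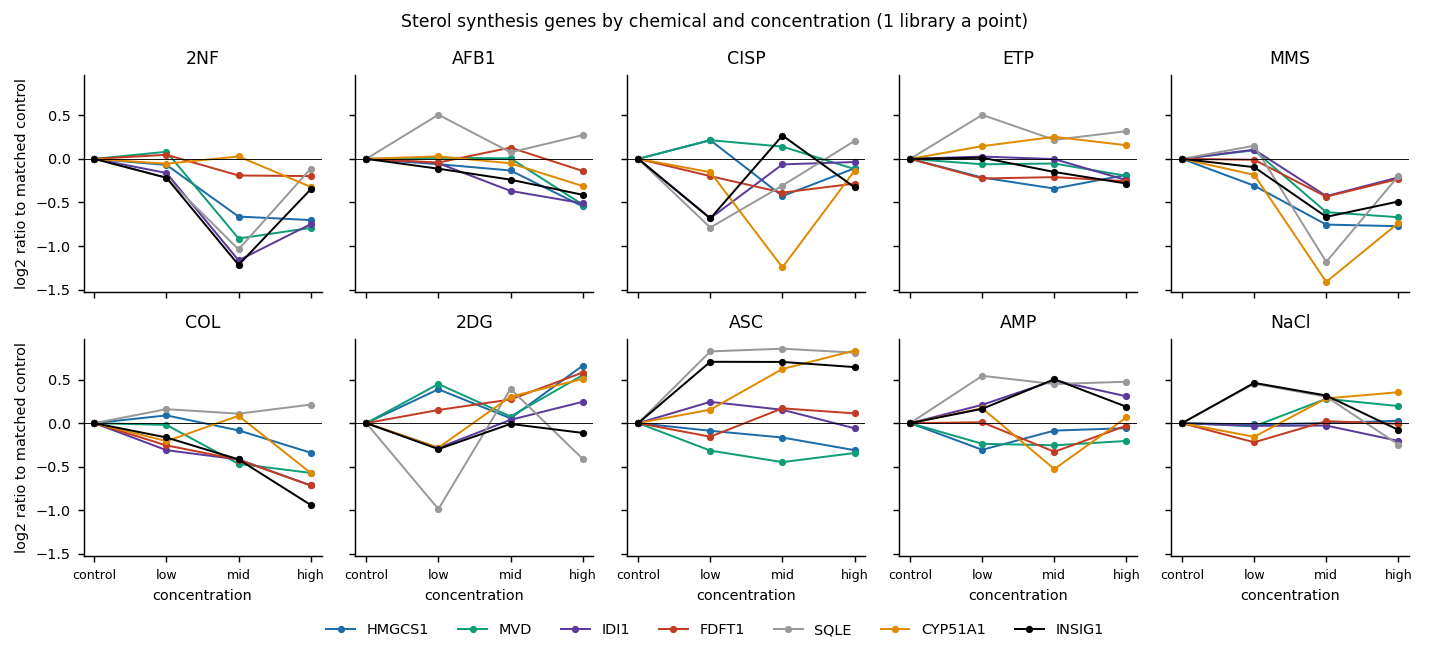
Log2 ratio of log2(RPM + 1) to the matched vehicle control (y axis) at the low, mid and high concentration (x axis), with 1 panel a chemical, 1 line a gene and 1 library a point. The lines of most genes drop in 2NF, MMS and COL, with the mid concentration lowest for most genes in 2NF and MMS. The SQLE line stays above 0 in COL. In AFB1, CISP and ETP most lines are below 0 at high, and in the remaining chemicals they lie on both sides of 0.

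In the other chemicals none of the 7 genes was called, and few genes of any kind were. In CISP no gene of 13812 was called (0.0%), none of the 7 had an unadjusted p under 0.05, and DESeq2 called none of them. In ETP 0.0796% of all genes were called, and again none of the 7 had an unadjusted p under 0.05. In AMP (0.0%) and NaCl (0.0434%) the same held, by edgeR and by DESeq2. Over all genes, edgeR gave 919 unadjusted p-values under 0.05 in CISP and 418 in AMP, and DESeq2 called 13 and 2 genes.

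After 2DG, which blocks glycolysis, most of the sterol genes were higher at the high concentration, but no slope passed the test. HMGCS1 measured 274 RPM in the control and 359, 285 and 433 RPM at low, mid and high (slope 0.17, SE 0.0738). FDFT1 measured 546, 606, 659 and 817 RPM, the last being the highest of all 39 libraries (slope 0.18, SE 0.0613). These 2 had an unadjusted p under 0.05 and an edgeR adjusted p of 1.00. No gene at all was called in 2DG (0.0%) by edgeR or by DESeq2, with 212 unadjusted p-values under 0.05 by edgeR. MVD at the high concentration, 147 RPM against 100 RPM in its control, was likewise the highest of the 39 libraries, and CYP51A1 was at 1242 RPM against 874 RPM. The 2DG control was the lowest of the 4 media controls for HMGCS1 and MVD, and against the mean of the media controls the log2 ratios at high were 0.36 rather than 0.66 for HMGCS1 and 0.32 rather than 0.55 for MVD. SQLE and INSIG1 did not share this course, with high libraries at 43.6 and 136 RPM against controls of 58.2 and 147 RPM.

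In ASC the genes went different ways, and again none was called, where 0.0579% of all genes were. CYP51A1 measured 638, 710, 982 and 1137 RPM (slope 0.31, SE 0.130, edgeR adjusted p = 0.300), the one gene of the 7 with an unadjusted p under 0.05. INSIG1 measured 102 RPM in the control and 167, 167 and 160 RPM in the treated libraries, and SQLE 29.1 and then 52.3, 53.4 and 51.7 RPM. For all 3 genes the ASC control was the lowest of the 4 media controls. Against the mean of the media controls the log2 ratios of INSIG1 were 0.44, 0.44 and 0.38 rather than 0.70, 0.70 and 0.64. MVD was lower than its control in the 3 ASC libraries, at 105, 95.5 and 103 RPM against 131 RPM. For MVD the ASC control was the highest of the 4 media controls, and against their mean the log2 ratios were -0.16, -0.29 and -0.19 rather than -0.32, -0.45 and -0.34.

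The study's classes were compared with the chemicals as the replicates, 5 against 5, each with its matched control. None of the 7 genes was called at the high concentration, where 0.0515% of 13602 genes were, at the mid concentration (0.0%) or at the low concentration (0.0%). At high, HMGCS1 had a mean log2 ratio of -0.46 ± 0.30 (SD) in the DDI and -0.0042 ± 0.40 (SD) in the non-DDI chemicals. It was below its control in 5 of 5 DDI and 3 of 5 non-DDI chemicals, and the fitted difference was -0.47 (SE 0.198, edgeR adjusted p = 0.578). At mid, SQLE had the widest gap, -0.45 ± 0.64 (SD) against 0.42 ± 0.27 (SD), with a fitted difference of -0.77 (SE 0.270, edgeR adjusted p = 0.807). The classes overlapped for each of the 7 genes at each concentration. Unadjusted p-values under 0.05 were found for 1 gene at high, 2 at mid and 0 at low by edgeR, and DESeq2 called none. Over all genes there were 1068, 783 and 308 such p-values by edgeR, and DESeq2 called 96, 12 and 0 genes. COL, where 3 of the genes fell, is a non-DDI chemical, while CISP and ETP, where none was called, are DDI. Vehicle and class cannot be told apart fully, because 4 of the 5 non-DDI and none of the DDI chemicals were given in media. With the 5 chemicals in DMSO alone, COL is the only non-DDI chemical, with 1 library at each concentration. That fit cannot tell a class from COL itself, so nothing is drawn from it.

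The vehicle controls gave the only replicated groups, 4 DMSO against 4 media libraries. None of the 7 genes was called, where 5.35% of 13053 genes were. INSIG1 averaged 161 ± 36.0 RPM (SD, n = 4) in DMSO and 124 ± 20.9 RPM (SD, n = 4) in media, and IDI1 506 ± 76.2 (SD, n = 4) and 413 ± 69.6 (SD, n = 4). The differences, 0.39 (SE 0.162) and 0.31 (SE 0.141) on the log2 scale, had edgeR adjusted p-values of 0.194 and 0.234, and the ranges of the vehicles overlapped for both genes. These 2 genes alone had an unadjusted p under 0.05, and DESeq2 called none of the 7. Of the cell type markers described below, APOA1, CYP2E1 and TTR were higher in DMSO, as was SOX9, and SPP1 was lower, and their part in these values was not tested. MVD and CYP51A1 differed by 0.03 (SE 0.110) and -0.0039 (SE 0.163). The controls of 1 vehicle spanned between 0.23 (FDFT1) and 0.71 (INSIG1) on the log2 scale in DMSO and between 0.19 (FDFT1) and 0.98 (SQLE) in media. Set against those spans, 29 of the 189 log2 ratios of chemicals in DMSO or media lay further below 0 and 10 further above. Of the 29, COL and 2NF each gave 8, CISP 5 and AFB1 3, and of the 10, 2DG and ASC each gave 5. The 21 ratios of MMS had no such span, since its water control was a single library.

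Part of the rest of the pathway fell in the same chemicals. Among 14 further genes of sterol metabolism, 8 fell in 2NF, 7 in MMS, 4 in COL and 2 in AFB1, none rose in any chemical, and none was called in the other 6 chemicals. ACAT2, which makes the acetoacetyl-CoA used by HMGCS1, EBP and DHCR7, which act late on the sterol ring, and TM7SF2, a sterol reductase, fell in all of 2NF, MMS and COL. TM7SF2 had the steepest slopes of these, -0.78 (SE 0.121) in 2NF, -0.66 (SE 0.119) in COL and -0.47 (SE 0.128) in MMS, and it also fell in AFB1 (-0.39, SE 0.116). LSS, which closes the ring of squalene epoxide, fell in 2NF (slope -0.82, SE 0.190) and AFB1 (slope -0.69, SE 0.166), but its counts were small, with a median of 23 and a minimum of 4. MVK, a kinase that acts upstream of MVD in the pathway, fell in 2NF and MMS with slopes of -0.30 and -0.34. The other calls were FDPS and NSDHL in 2NF and MSMO1 and PMVK in MMS. The median slope of the 14 genes was -0.29 in 2NF, -0.27 in MMS, -0.24 in COL and -0.14 in AFB1.

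Of 6 regulators, SREBF1, the gene of SREBP1, fell in 2NF (slope -0.26, SE 0.0700), MMS (-0.22, SE 0.0696), AFB1 (-0.22, SE 0.0633) and COL (-0.19, SE 0.0626). SREBF2, the gene of SREBP2 itself, had slopes between -0.10 and -0.02 in these chemicals and was not called, nor were SCAP, INSIG2, MBTPS1 and MBTPS2. The counts measure mRNA, so the processing of SREBP2 protein was not measured.

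**Figure D3:**
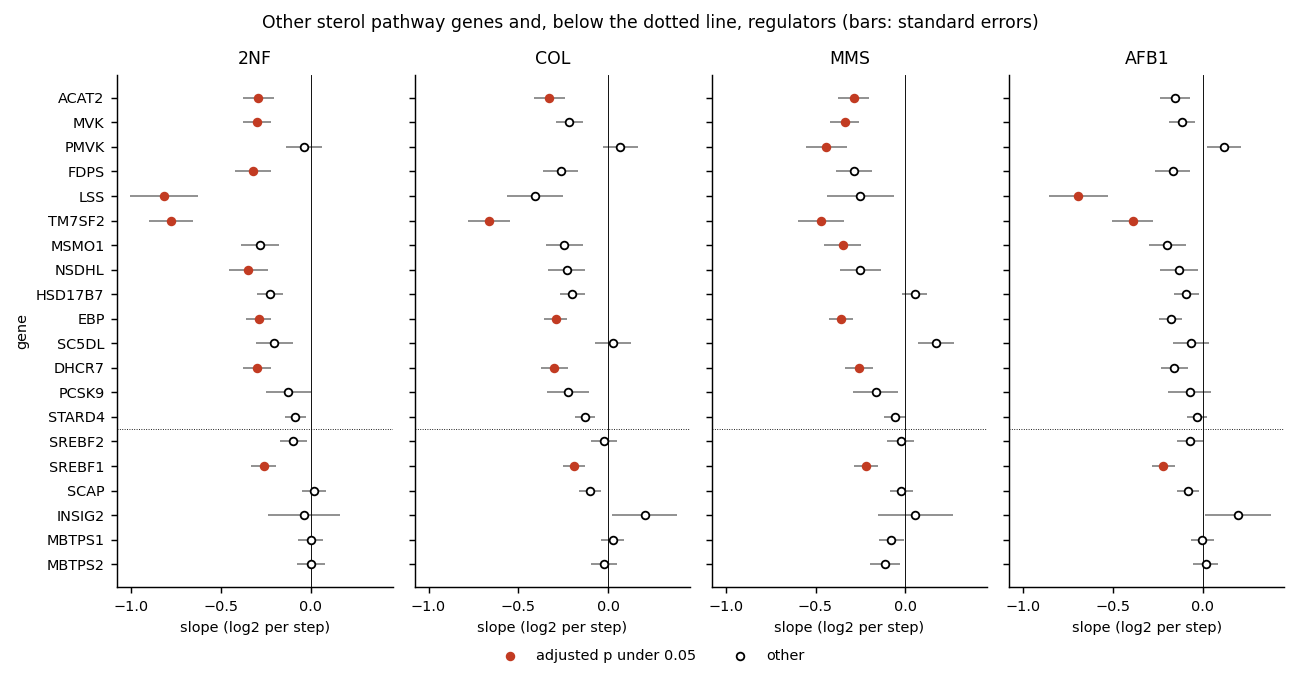
Slope of the log2 count per concentration step (x axis) with its standard error for 14 other sterol pathway genes and 6 regulators (y axis) in 2NF, COL, MMS and AFB1. Filled points have an edgeR adjusted p under 0.05, and all lie left of 0, while SREBF2 is open in all 4 panels.

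Genes of neighbouring lipid pathways were set beside these. Of 8 fatty acid synthesis genes under SREBP1, 7 passed the filter on low counts. SCD, which desaturates fatty acids, fell in 2NF (slope -0.47, SE 0.0978), COL (-0.40, SE 0.0958), AFB1 (-0.37, SE 0.0980) and MMS (-0.28, SE 0.0936), and FASN, the fatty acid synthase, fell in 2NF, COL and MMS with slopes of -0.32, -0.37 and -0.33. FADS1 in COL (-0.35) and ELOVL6 in MMS (-0.44) were the other calls. Of 3 genes induced by the sterol sensor LXR, 2 passed the filter, and ABCA1, which exports cholesterol, fell in 2NF (slope -0.38, SE 0.111) and COL (-0.40, SE 0.110). None of these genes was called in the other 6 chemicals, and between the vehicles ELOVL6 alone was called, lower in DMSO by 0.67 on the log2 scale.

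Hepatocyte markers were lower in the same chemicals. Of 10 markers, 7 fell in 2NF, 9 in MMS, 8 in COL and 6 in AFB1, and none in the other 6 chemicals. Their summed level was 31828 to 46417 RPM in the DMSO controls, 22457 to 30941 in the media controls and 25029 in the water control. Most of this sum was ALB (median 22104.5 RPM over the 39 libraries), so it says little about the other markers. It was 14068 at mid and 12164 RPM at high in 2NF, 3496 and 6691 RPM in MMS, 34302 and 18992 RPM in COL, and 32147 and 24504 RPM in AFB1. The summed values of COL and AFB1 at mid were thus within the range of the DMSO controls. Even so, all 10 markers were below the matched control at mid in both. Their mean log2 ratios were -0.81 in COL and -0.82 in AFB1. Among the other 6 chemicals, CISP at mid (24200 RPM) and 2DG at low and high (18772 and 20326 RPM) were also below the controls of their vehicle. All ASC and NaCl libraries and AMP at low and high were above the media controls. Across the 30 conditions the mean log2 ratio of the 10 markers and that of the 7 sterol genes had a Pearson correlation of 0.83, given as a description because conditions share controls and chemicals. AFB1 at high had a marker mean of -1.92, close to COL at high with -1.90, with a sterol gene mean of -0.31 against -0.52. In bulk RNA, fewer hepatocyte-like cells and less RNA per cell cannot be told apart, and the part of the markers' drop in that of the sterol genes was not tested.

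HepaRG™ cultures also hold cholangiocyte-like cells. Of 6 markers of that type, KRT7, EPCAM and CFTR had at most 3 counts in any library, and the summed level of the list ranged from 465 to 1339 RPM in the DMSO and from 1064 to 1454 RPM in the media controls, mostly KRT19. In MMS SOX9 and SPP1 fell, in COL SPP1 fell, and in 2NF KRT19 and SOX9 fell while SPP1 rose (slope 0.39, SE 0.0956). Of the hepatocyte markers, ALB was at 2299 RPM or more in every library, and TAT had a smallest count of 0.

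Over the 30 conditions the log2 ratios of the 7 genes were alike to different degrees. The closest pairs were HMGCS1 with MVD (Pearson 0.82) and IDI1 with INSIG1 (0.81), and the least alike were SQLE with MVD (-0.05) and SQLE with HMGCS1 (0.06). With the mean of the other 6 genes, IDI1 and INSIG1 had the highest correlations, 0.71 each, and MVD the lowest, 0.44. Among 11555 other genes, each with 10 or more counts in all 39 libraries, those close to the mean of the 7 included EPHX2 (0.94), ACAT2 (0.94), MSMO1 (0.92), ADRA1A (0.90), GSTA1 (0.90), ADH6 (0.90), LINC00261 (0.89), F13B (0.89) and MAOB (0.88). ACAT2 and MSMO1 are sterol synthesis enzymes, and the others named are from no list used here. NSDHL was at rank 28, SREBF1 at rank 138 and ALB at rank 37, while SREBF2, at rank 4723, was near 0 (0.02). These correlations are descriptions, with 30 points that share 9 control libraries.

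The extremes of the 7 genes over all 39 libraries lay in few conditions. The lowest library was MMS at high for HMGCS1 (191 RPM) and MVD (67.8 RPM), MMS at mid for IDI1 (246 RPM) and SQLE (17.5 RPM), COL at high for FDFT1 (364 RPM) and INSIG1 (67.0 RPM), and CISP at mid for CYP51A1 (385 RPM). The highest was 2DG at high for FDFT1 (817 RPM) and MVD (147 RPM), 2DG at mid for SQLE (76.7 RPM), NaCl at high for CYP51A1 (1252 RPM), and a DMSO control for HMGCS1 (444 RPM), IDI1 (612 RPM) and INSIG1 (212 RPM). The medians over the 39 libraries were 326 RPM for HMGCS1, 108 for MVD, 422 for IDI1, 546 for FDFT1, 46.9 for SQLE, 851 for CYP51A1 and 129 for INSIG1. With the libraries put in order of level, neighbours in HMGCS1, IDI1 and INSIG1 were never further apart than the SD of the DMSO controls (0.22, 0.21 and 0.30 on the log2 scale). FDFT1 had the most wider gaps, 3 of 38, the largest of 0.31 against an SD of 0.10, between 2DG at high and the next library. MVD had a single wider gap, of 0.30 against an SD of 0.12, between 7 libraries from 67.8 to 77.6 RPM and the others from 95.5 RPM up. Those 7 libraries were the mid and high concentrations of 2NF, MMS and COL and the high concentration of AFB1. In CYP51A1 the mid libraries of CISP and MMS lay 0.55 below the rest (SD 0.26), and in SQLE the mid library of MMS lay 0.60 below the rest (SD 0.33).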

How the data were processed

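The authors prepared AmpliSeq libraries, aligned the reads with TMAP to the transcripts of the panel (hg19) and deposited the read count of each target, not normalized. RPM, the counts scaled to the library total, were deposited by the authors beside them. The chemicals, concentrations and matched controls are those of the sample labels. The 10 spike-in targets were left out.

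Tests used the deposited counts and edgeR 4.0.16 in R 4.3.3 (TMM, filterByExpr, quasi-likelihood test, Benjamini-Hochberg adjustment over all genes tested). The trend model held the matched control set as a block and 1 slope for each chemical on ranks 0 to 3, with 20 residual degrees of freedom. The fitted level of a set rested on all its libraries, not on the control alone. AFB1 and COL share a set, so their slopes depend on each other. The class model held the high, mid or low libraries with the 9 controls, the control set as a block and 1 term a class, with 8 residual degrees of freedom. The control model compared 4 DMSO with 4 media libraries. The SE given for an edgeR slope or difference is the size of the log2 change divided by the square root of its F statistic in the quasi-likelihood test. DESeq2 1.42.0 was an alternative. The models were run on simulated counts with the same spread for all genes and no differences between control sets. The simulated trends were linear in rank. Those runs do not show how the models behave with uneven controls or turns between mid and high. Single conditions were compared as log2(RPM + 1), which slightly understates changes of low genes, with no test. Totals had a median of 11202013 counts, and the libraries carry no molecular identifiers, so the precision of low genes is limited by counting and by amplification.

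The 7 genes and all gene lists were chosen with earlier results of these data known, and list counts are not independent evidence. All 7 genes were tested in every comparison, and the plot of slopes by gene and chemical shows the trend of each. The text does not give values for all 7 in every chemical, nor between classes or vehicles. The values it gives there are a selection among the 7. Of the lists, the genes called in a chemical in which at least 1 of the 7 was called are named, with SREBF2 and the other regulators not called added after their values were seen, and the genes named as most alike are from the 10 with the highest Pearson correlation of 30 log2 ratios with the mean of the 7. A few genes that these rules would name are not reported here. Other settings were the size factors of DESeq2, library totals, no filter on low counts, concentration in place of rank, vehicle as the block, leaving out 1 concentration, chemical or control, chemicals in DMSO alone, no block, a pseudocount of 0.1, the mean control of the vehicle, TMM-adjusted totals and, added after seeing the data, leaving out the control of ETP. Promoter windows came from RefSeq (GRCh38.p14), so no coordinates of the amplicons (hg19) are given. Micronucleus and survival data were not analysed here. Figures were drawn with matplotlib 3.10.9 under Python 3.11.15.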

Additional observations from a re-analysis of the deposited data

How the results depend on the processing

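No slope of the 7 genes that was called changed sign under any of the 10 other settings of the trend model. HMGCS1 in MMS was called under all 10, and FDFT1 in COL under 9, all but without the high concentration. CYP51A1 in MMS was the least secure, lost under 5 settings with adjusted p-values up to 0.147. Of the 7 genes in 10 chemicals, 9 slopes were called, 3 each in 2NF, MMS and COL and 0 in AFB1. With concentration in place of rank, 2 were called in all, 0 in 2NF, 1 in MMS and 1 in COL, a scale that puts most of the weight on the high library. With vehicle as the block in place of the matched control, 15 were called in all, 4 in AFB1 and 5 in COL. DESeq2 called 1 in AFB1, as did the fit without the mid concentration. Without the high concentration 4 were called in all and 0 in COL, and without the low concentration 1 in COL. Without the control of ETP, a setting added after seeing the data, 8 were called, with CYP51A1 in MMS lost. The counts of the 7 genes called between vehicles, and between classes with more than 1 chemical on each side, stayed at 0 under every setting run. The causes of these changes were not tested. Over all genes, the counts called ranged from 445 to 2230 in 2NF (1208 as reported), from 93 to 2808 in COL (1704), from 1287 to 2250 in MMS (2140), from 0 to 1670 in AFB1 (769), from 0 to 171 in ASC (8), from 0 to 167 in CISP (0), from 0 to 70 in ETP (11), from 0 to 12 in NaCl (6), from 0 to 96 between classes at high (7), from 0 to 12 at mid (0) and from 227 to 1144 between vehicles (698). Of 630 recomputed log2 ratios, pooled over the pseudocount, TMM-adjusted totals and mean control settings, 559 moved by less than 1 SD of the controls. The pseudocount and TMM settings kept the matched control. With the mean control of the vehicle the MMS ratios could not move, because water had a single control. The pooled count therefore does not show how far ratios depend on the matched control. At high, 49 of the 70 ratios were below 0, and 43 with the mean control of the vehicle.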
